A study of Mus musculus with 64 samples.

Results

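Cortical projection neurons are sorted into layers by transcription factors that each mark and specify some of them, and 10 such genes were followed here: Cux1, Cux2, Rorb, Foxp1, Foxp2, Tbr1, Fezf2, Bcl11b, Etv1 and Neurod6. All probe sets annotated to these genes were taken, which gave 36 probe sets that name 1 member each, among 45037 probe sets that are not controls and 18193 genes with a probe set of their own. Cux1 had 9 probe sets, Foxp1 8, Foxp2 6, Bcl11b 4, Cux2 and Rorb 3 each, and Tbr1, Fezf2 and Neurod6 1 each. Etv1 had no probe set of its own: 3 probe sets were annotated jointly to Etv1 and Gm5454, a pseudogene, and they are described apart as the jointly annotated probe sets. Each of the other 9 genes is represented by its brightest probe set, judged by the mean of all 64 arrays, where 1 value is given.

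RNA came from the prefrontal cortex and the hippocampus of mice aged 4 months and was measured on 64 Affymetrix whole-genome mouse arrays, 8 arrays in each of 8 groups. The transgenic animals were Tg2576 mice, which over-express a human mutant amyloid precursor protein, infused with PF-04447943 or with vehicle, and the wild-type animals were their littermates without the transgene, infused with PF-04447943 or with vehicle. PF-04447943 inhibits the cyclic GMP phosphodiesterase PDE9A. All mice were of the B6SJLF1 strain and carried a minipump under the skin for 28 days, so the vehicle mice had the pump too. The design describes the cortical sample as frontal cortex, the labels as prefrontal cortex, and the design gives 8 mice for each group. In the brain Tg2576 is driven by the hamster prion protein promoter, as background, and not by a promoter of any layer.

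In the developing cortex these factors act in part by mutual repression. Tbr1, a T-box factor of early-born deep-layer neurons, holds back Fezf2 and Bcl11b, which direct neurons towards the brainstem and spinal cord. Cux1 and Cux2, homeodomain factors of the upper layers, regulate dendrites and spines there, and Rorb marks the granular layer that receives thalamic input. Outside the cortex Bcl11b, Foxp1 and Foxp2 are also factors of striatal projection neurons, and Bcl11b and Neurod6 are present in hippocampal pyramidal neurons.

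The deposited values were intensities made with RMA, and differences are given on the log2 scale, where 1 is a doubling. The median intensity of an array ran from 90.9 to 100.69. One hippocampal array, Tg2576 PF-04447943 replicate 1, went against its label: its median correlation over all probe sets was 0.984 with the prefrontal cortex arrays and 0.980 with the hippocampal arrays. It was the 1 of 32 hippocampal arrays closer to the other region, and 0 of 32 prefrontal cortex arrays were. The mean of the 19 hippocampal neuron genes was 7.60 on that array and 8.77 to 9.46 on the other 31 hippocampal arrays, against 7.12 to 7.53 in prefrontal cortex. Regional differences moved little without it, to 2.36 for Foxp2, 1.44 for Rorb, 1.64 for Tbr1, 0.49 for Cux1, 0.70 for Foxp1, -0.42 for Fezf2, -1.17 for Bcl11b and -1.18 for Neurod6, and other values without it stand beside the results it moved most. Of these 19 genes, 16 were lower in prefrontal cortex, 1 was higher (C1ql3, at 0.21) and 2 did not pass (limma, adjusted p under 0.05). The largest log2 differences were those of Dsp, Lct, Spink8 and C1ql2, at -4.50 to -3.51. The mean of 14 upper-layer cortical genes ran from 8.74 to 9.29 in prefrontal cortex, against 8.11 to 8.46 on those 31 hippocampal arrays. By the means of these lists, though not by every gene in them, the labelled tissues otherwise carried their markers.

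Prefrontal cortex arrays also differed in genes of striatal projection neurons, of which 16 of 18 listed were measured. The mean log2 level of these 16 genes ran from 7.56 to 10.60 over the prefrontal cortex arrays, against 7.60 to 8.00 over the hippocampal arrays. Its widest gap, between 7.99 and 8.46, left 16 prefrontal cortex arrays above it: 4 of 8 in Tg2576 mice given PF-04447943, 5 of 8 in Tg2576 mice given vehicle, 3 of 8 in wild-type mice given PF-04447943 and 4 of 8 in wild-type mice given vehicle. The summed intensity of the list in prefrontal cortex was 5863 to 36241 in Tg2576 mice given PF-04447943, 6385 to 40932 in Tg2576 mice given vehicle, 5854 to 26900 in wild-type mice given PF-04447943 and 6319 to 44349 in wild-type mice given vehicle. In hippocampus the sums ran from 5188 to 8560. No deposited value is at 0, and the part of these genes in the regional differences was not tested. A tissue sample mixes cell types, so fewer cells of a type and less RNA per cell cannot be told apart in any of the values below.

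The first comparison asked how the layer factors differ between prefrontal cortex and hippocampus. Of the 36 member probe sets, 32 passed the test (limma, adjusted p under 0.05 over all 45037 probe sets), 26 higher and 6 lower in prefrontal cortex. The background was wide: 55.5% of all probe sets passed, 26.7% higher and 28.7% lower in prefrontal cortex. The median absolute log2 difference was 0.77 over the members and 0.12 over all probe sets. Among members 12 of 36 were called with a log2 difference over 1, against 0.99% of all probe sets, and 4 of 36 with one under -1, against 0.79%. The direction split by gene: Cux1, Cux2, Rorb, Foxp1, Foxp2 and Tbr1 were higher in prefrontal cortex, and Fezf2, Bcl11b and Neurod6 were lower.

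**Figure D1:**
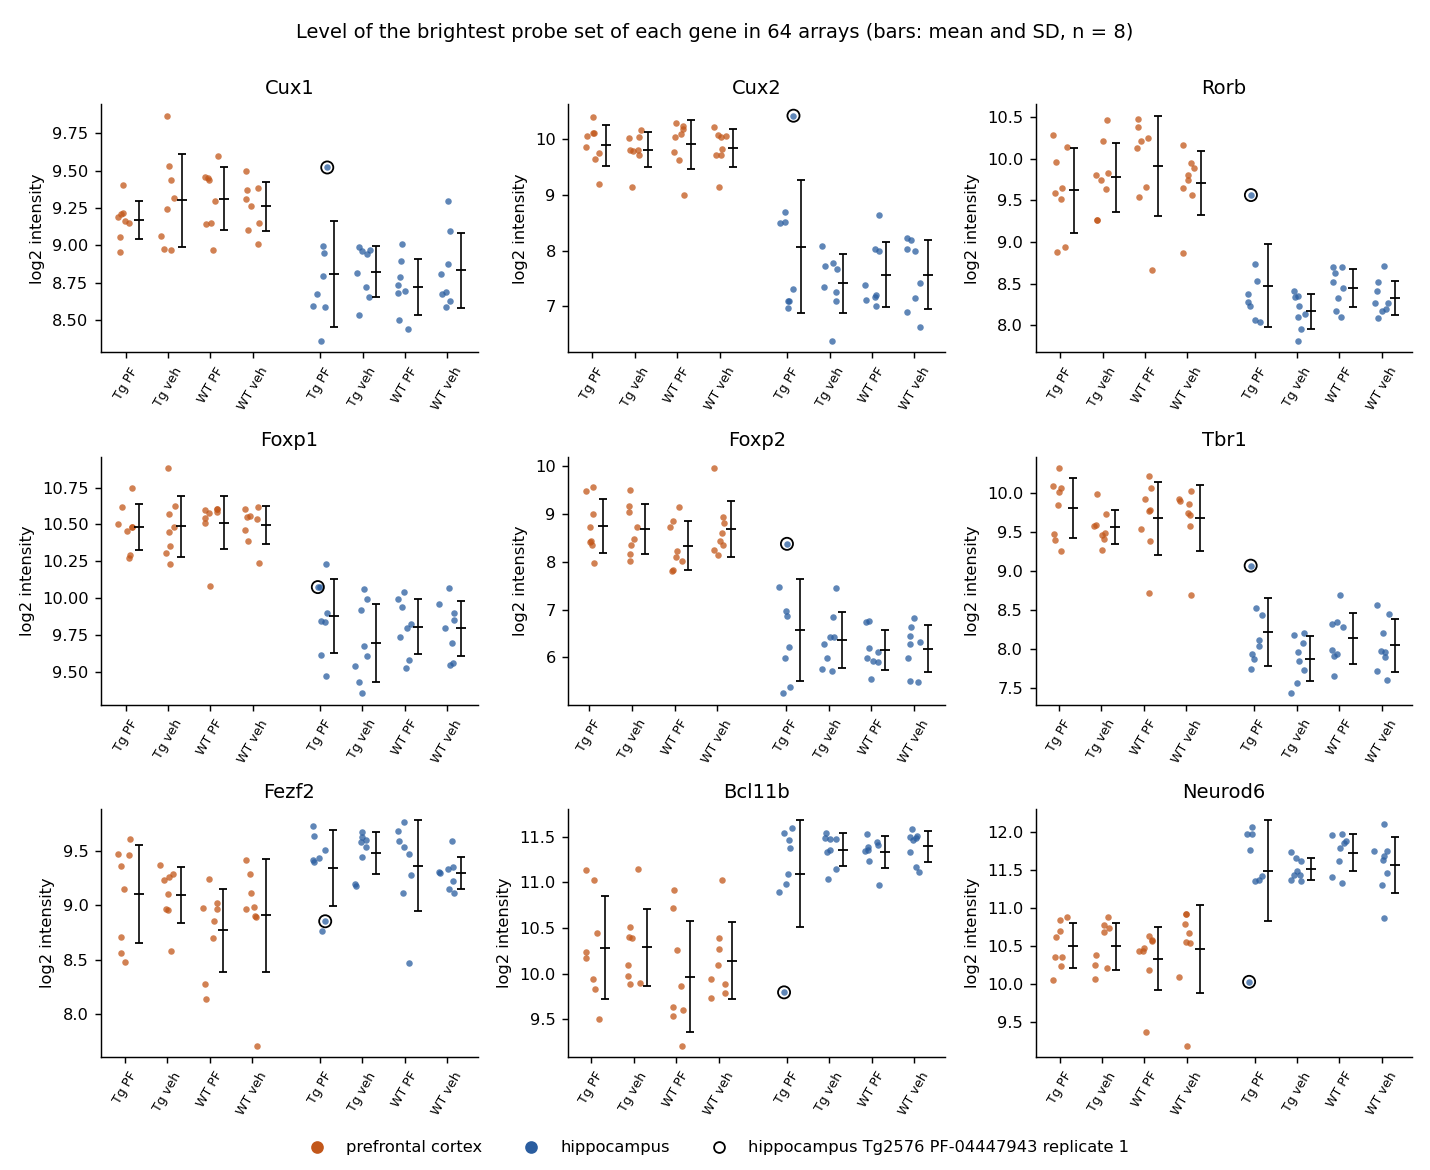
Log2 intensity of the brightest probe set of 9 genes (vertical axis) on each of 64 arrays, by group (horizontal axis; Tg is Tg2576, WT wild-type, PF PF-04447943, veh vehicle), with the mean and SD of 8 arrays beside the points. The prefrontal cortex groups (orange) lie above the hippocampal groups (blue) for 6 genes and below them for Fezf2, Bcl11b and Neurod6, and the ringed hippocampal array lies with the prefrontal cortex for Cux2 at 10.43 and Bcl11b at 9.79.

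Among the upper-layer factors Cux2 had the largest regional difference. Over 32 arrays its level had a lowest, median and highest value of 9.0, 9.94 and 10.41 in prefrontal cortex, against 6.37, 7.40 and 10.43 in hippocampus. In the prefrontal cortex, Cux2 averaged 9.90 ± 0.37 in Tg2576 mice given PF-04447943, 9.81 ± 0.31 in Tg2576 mice given vehicle, 9.91 ± 0.44 in wild-type mice given PF-04447943 and 9.85 ± 0.34 in wild-type mice given vehicle (log2 intensity, SD, n = 8 each). In the hippocampus, Cux2 averaged 8.07 ± 1.20 in Tg2576 mice given PF-04447943, 7.41 ± 0.53 in Tg2576 mice given vehicle, 7.56 ± 0.59 in wild-type mice given PF-04447943 and 7.56 ± 0.62 in wild-type mice given vehicle. The single hippocampal value above the lowest prefrontal cortex value belonged to Tg2576 PF-04447943 replicate 1, and the highest of the other 31 hippocampal arrays was 8.69, so without it the regions did not overlap. The log2 difference was 2.22 ± 0.15 (SE), or 4.65-fold (limma, adjusted p = 2.80e-20), and 2.30 ± 0.13 without that array. The other Cux2 probe sets were also called but differed less, 1450181_at 2.01-fold and 1447821_at 1.23-fold, and in both the regions overlapped with or without that array.

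To set a rising and a falling member side by side, the RefSeq promoter sequences (250 bases before and 50 after a start site, GRCm38.p6) of Cux2, Bcl11b and Neurod6 are shown, all on the minus strand and written 5′ to 3′. Of the 2 start sites listed for Cux2, the one with motif matches is shown, with capitals marking CATCTG, the reverse complement of the E-box CAGATG that NeuroD proteins read, and ATCGAT, the core read by Cut homeodomain proteins such as Cux2 itself.
Cux2, chr5:122047776-122048075: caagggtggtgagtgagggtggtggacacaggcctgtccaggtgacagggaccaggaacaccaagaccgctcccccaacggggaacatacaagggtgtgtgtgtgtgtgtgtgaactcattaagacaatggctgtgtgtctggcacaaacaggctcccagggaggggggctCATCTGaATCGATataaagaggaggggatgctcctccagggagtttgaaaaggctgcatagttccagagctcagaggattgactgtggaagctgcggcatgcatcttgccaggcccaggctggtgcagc
Bcl11b, chr12:108003365-108003664: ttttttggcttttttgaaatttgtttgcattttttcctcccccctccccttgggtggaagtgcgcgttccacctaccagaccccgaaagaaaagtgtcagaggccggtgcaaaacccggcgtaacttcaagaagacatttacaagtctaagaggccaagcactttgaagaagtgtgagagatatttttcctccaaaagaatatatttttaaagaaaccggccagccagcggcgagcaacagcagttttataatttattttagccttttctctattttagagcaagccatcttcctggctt
Neurod6, chr6:55681214-55681513: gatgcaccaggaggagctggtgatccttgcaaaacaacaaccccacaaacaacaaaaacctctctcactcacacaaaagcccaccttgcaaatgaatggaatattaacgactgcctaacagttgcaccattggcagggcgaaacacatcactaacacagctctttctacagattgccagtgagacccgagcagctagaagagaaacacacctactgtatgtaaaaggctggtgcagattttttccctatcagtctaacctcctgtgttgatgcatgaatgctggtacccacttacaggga
The E-box began 79 bases and ATCGAT 72 bases before the Cux2 start site shown, and the matches do not overlap each other. The other listed Cux2 start site lies farther upstream, and its promoter held no match to the motifs searched. Both strands were searched in 32851 promoters, of which 17.2% held CAGATG and 0.925% held ATCGAT. Promoters were found for 9 of 10 members, 14 in all. Of these, 2 held CAGATG (Cux2 and Etv1), 1 held ATCGAT (Cux2) and 1 held the forkhead core GTAAACA (Cux1), which 3.65% of all promoters held. The T-box core GGTGTGA, in 3.98% of all promoters, and the receptor half-site AGGTCA, in 16.3%, were in 0 of 14. These matches describe letters in the windows and carry no measurement of binding.

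Cux1, the close relative of Cux2, was higher in prefrontal cortex by 0.46 ± 0.06 (limma, adjusted p = 2.85e-10). Its lowest, median and highest values were 8.96, 9.23 and 9.87 in prefrontal cortex, against 8.36, 8.76 and 9.52 in hippocampus, and the regions overlapped. Its 9 probe sets differed widely in size, with log2 differences of 0.10 to 1.54, of which 7 were called and none was below 0. The probe sets 1434683_at (1.54) and 1425611_a_at (1.07) separated the regions without overlap once the hippocampal array that stood apart was left out, while 1424667_a_at (0.10) and 1437686_x_at (0.10) were not called. The Cux1 locus also makes CASP, a Golgi protein, by alternative splicing, and which transcript each probe set reads was not tested.

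Rorb, a nuclear receptor of the granular layer, was higher in prefrontal cortex by 1.40 ± 0.10, or 2.64-fold (limma, adjusted p = 3.98e-19). In the prefrontal cortex, Rorb averaged 9.62 ± 0.51 in Tg2576 mice given PF-04447943, 9.78 ± 0.42 in Tg2576 mice given vehicle, 9.91 ± 0.60 in wild-type mice given PF-04447943 and 9.71 ± 0.39 in wild-type mice given vehicle (log2 intensity, SD, n = 8 each). In the hippocampus, Rorb averaged 8.48 ± 0.50 in Tg2576 mice given PF-04447943, 8.17 ± 0.21 in Tg2576 mice given vehicle, 8.45 ± 0.23 in wild-type mice given PF-04447943 and 8.33 ± 0.21 in wild-type mice given vehicle. All 3 of its probe sets were called, at 1.06 to 1.60. The regions overlapped: prefrontal cortex arrays ran down to 8.66, the hippocampal array that stood apart was at 9.56, and the highest of the other hippocampal arrays was 8.73.

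Among the deep-layer factors Tbr1 was higher in prefrontal cortex by 1.61 ± 0.09, or 3.06-fold, the smallest adjusted p of any member (limma, 7.67e-24). In the prefrontal cortex, Tbr1 averaged 9.80 ± 0.38 in Tg2576 mice given PF-04447943, 9.56 ± 0.22 in Tg2576 mice given vehicle, 9.67 ± 0.47 in wild-type mice given PF-04447943 and 9.68 ± 0.42 in wild-type mice given vehicle (log2 intensity, SD, n = 8 each). In the hippocampus, Tbr1 averaged 8.21 ± 0.44 in Tg2576 mice given PF-04447943, 7.88 ± 0.28 in Tg2576 mice given vehicle, 8.14 ± 0.33 in wild-type mice given PF-04447943 and 8.05 ± 0.34 in wild-type mice given vehicle. Arrays ran from 8.68 to 10.32 in prefrontal cortex, against 7.43 to 9.07 in hippocampus, and to 8.69 without the array that stood apart, so the ranges still met.

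Foxp2, a forkhead factor of corticothalamic neurons and also of striatal neurons, differed by 2.29 ± 0.15 or 4.91-fold (limma, adjusted p = 1.13e-20). Without the 16 prefrontal cortex arrays high in striatal genes it differed by 2.00, against 2.45 for Cux2 in the same setting. In the prefrontal cortex, Foxp2 averaged 8.75 ± 0.56 in Tg2576 mice given PF-04447943, 8.68 ± 0.52 in Tg2576 mice given vehicle, 8.34 ± 0.51 in wild-type mice given PF-04447943 and 8.68 ± 0.58 in wild-type mice given vehicle (log2 intensity, SD, n = 8 each). In the hippocampus, Foxp2 averaged 6.56 ± 1.06 in Tg2576 mice given PF-04447943, 6.36 ± 0.58 in Tg2576 mice given vehicle, 6.15 ± 0.42 in wild-type mice given PF-04447943 and 6.19 ± 0.50 in wild-type mice given vehicle. The lowest prefrontal cortex value was 7.80, against a highest hippocampal value of 7.46 on the 31 arrays other than the one at 8.37. Probe set 1440108_at of Foxp2 differed by 2.98, the largest of all 36, and 5 of the 6 Foxp2 probe sets were called. The sixth, 1441365_at, differed by 0.08 and lay at the 1.91 percentile of probe set levels.

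Foxp1, expressed over several layers and in the striatum, was higher in prefrontal cortex by 0.70 ± 0.05, or 1.62-fold (limma, adjusted p = 3.18e-19). Arrays ran from 10.08 through a median of 10.52 to 10.88 in prefrontal cortex, against 9.36, 9.83 and 10.23 in hippocampus. Of its 8 probe sets 7 were called, all higher, at 0.34 to 0.70, and 1443258_at was not called at 0.07.

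Bcl11b, the zinc-finger factor also called Ctip2, was lower in prefrontal cortex by a log2 difference of -1.12 ± 0.10, or 2.18-fold higher in hippocampus (limma, adjusted p = 2.16e-14). In the prefrontal cortex, Bcl11b averaged 10.28 ± 0.57 in Tg2576 mice given PF-04447943, 10.29 ± 0.42 in Tg2576 mice given vehicle, 9.97 ± 0.61 in wild-type mice given PF-04447943 and 10.14 ± 0.42 in wild-type mice given vehicle (log2 intensity, SD, n = 8 each). In the hippocampus, Bcl11b averaged 11.09 ± 0.59 in Tg2576 mice given PF-04447943, 11.36 ± 0.18 in Tg2576 mice given vehicle, 11.33 ± 0.17 in wild-type mice given PF-04447943 and 11.39 ± 0.17 in wild-type mice given vehicle. Its 4 probe sets gave -1.12 to -0.995 and were all called. Prefrontal cortex arrays ran from 9.21 to 11.15, against 10.90 to 11.59 on the hippocampal arrays other than the one at 9.79, so the regions overlapped. The 16 prefrontal cortex arrays below the striatal gap reached 10.18 and those above it 11.15. Without the 16 arrays above it the difference was -1.48 ± 0.09, and also without the hippocampal array it was -1.53 ± 0.06.

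Fezf2, a zinc-finger factor that directs subcerebral projection neurons, had the smallest difference among the 3 genes lower in prefrontal cortex, -0.40 ± 0.09 (limma, adjusted p = 8.54e-05). Arrays ran from 7.71 through 8.98 to 9.61 in prefrontal cortex, against 8.48, 9.42 and 9.76 in hippocampus, with broad overlap. The 3 probe sets annotated jointly to Gm5454 and Etv1 were all called lower in prefrontal cortex, at -0.46 to -0.21, and the brightest of them averaged 10.15 ± 0.19 in prefrontal cortex and 10.36 ± 0.33 in hippocampus (SD, n = 32 each).

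Neurod6, a helix-loop-helix factor of postmitotic excitatory neurons in cortex and hippocampus, was lower in prefrontal cortex by -1.12 ± 0.10, or 2.18-fold higher in hippocampus (limma, adjusted p = 3.21e-15). In the prefrontal cortex, Neurod6 averaged 10.50 ± 0.30 in Tg2576 mice given PF-04447943, 10.49 ± 0.31 in Tg2576 mice given vehicle, 10.33 ± 0.41 in wild-type mice given PF-04447943 and 10.46 ± 0.58 in wild-type mice given vehicle (log2 intensity, SD, n = 8 each). In the hippocampus, Neurod6 averaged 11.49 ± 0.66 in Tg2576 mice given PF-04447943, 11.51 ± 0.14 in Tg2576 mice given vehicle, 11.72 ± 0.25 in wild-type mice given PF-04447943 and 11.56 ± 0.37 in wild-type mice given vehicle. The lowest hippocampal value was 10.87 apart from the array that stood apart at 10.03, and the highest prefrontal cortex value was 10.92.

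**Figure D2:**
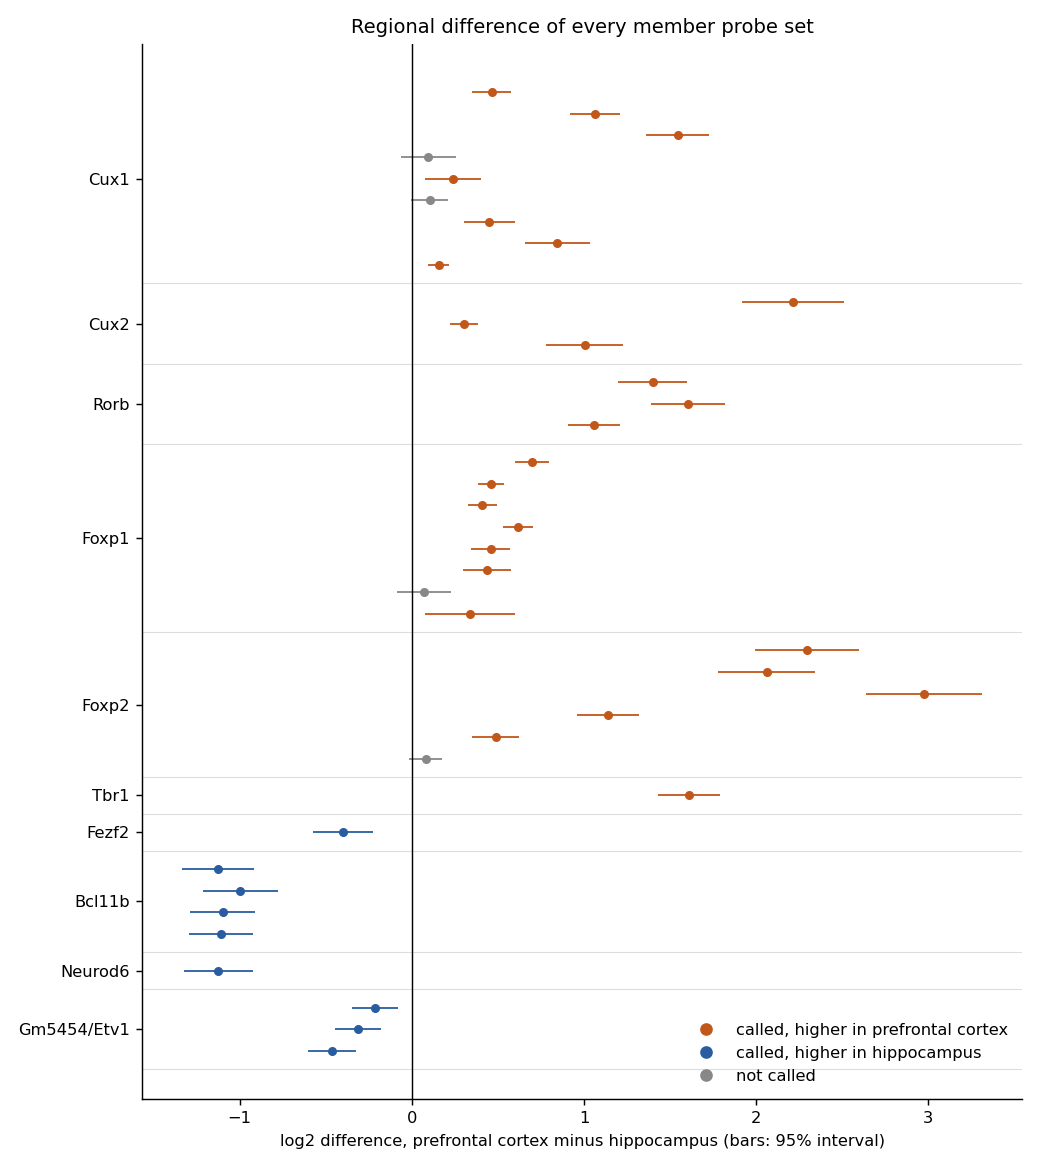
Log2 difference between prefrontal cortex and hippocampus (horizontal axis) with its 95% interval for each of 36 member probe sets and the 3 jointly annotated ones, grouped by gene and brightest first. Orange and blue points were called and grey points were not; within a gene the called probe sets lie on the same side of 0, and the sizes differ widely for Foxp2, Cux2 and Cux1.

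The order of the 8 group means followed the region for every one of the 9 genes. The 4 prefrontal cortex groups came first for Cux1, Cux2, Rorb, Foxp1, Foxp2 and Tbr1, and the 4 hippocampal groups came first for Fezf2, Bcl11b and Neurod6. The step between the regions was larger than the SD of both neighbouring groups for 8 genes, and for Fezf2, at 0.19, it was not. Neighbouring groups within a region overlapped in their ranges. No member probe set separated all 32 prefrontal cortex arrays from all 32 hippocampal arrays, which 0.973% of all probe sets did, 0.389% with prefrontal cortex higher and 0.584% with hippocampus higher. Without the hippocampal array that stood apart, 8 of 36 did, all higher in prefrontal cortex, against 2.25% of all probe sets, 0.999% with prefrontal cortex higher and 1.25% with hippocampus higher. They were 4 of Foxp2, 2 of Cux1 and 1 each of Cux2 and Rorb.

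Within single conditions 25 to 30 member probe sets were called. The regional difference was called for 25 of 36 member probe sets in Tg2576 mice given PF-04447943 (background 25.2%), 27 in Tg2576 mice given vehicle (38.3%), 30 in wild-type mice given PF-04447943 (26.6%) and 29 in wild-type mice given vehicle (28%). Without the hippocampal array that stood apart the first of these counts was 27. Fezf2 passed only in wild-type mice given PF-04447943, at -0.59 (limma, adjusted p = 0.00718), but the tests of the difference itself did not pass: its regional difference changed by 0.18 with the transgene (limma, adjusted p = 0.853) and by -0.03 with the drug (limma, adjusted p = 0.965).

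The same comparison was read in lists of other genes of these neurons. Of 30 measured transcription factors of cortical projection neurons other than the members, 10 were higher and 19 lower in prefrontal cortex, with a median of -0.31 against -0.01 over all probe sets. Mef2c, a MADS-box factor of excitatory neurons, was higher by 2.13 and Tshz3 by 1.5, while Zbtb20 and Prox1, factors of hippocampal pyramidal and granule neurons, were lower at -2.06 and -1.95. The lists share genes: Zbtb20, Prox1 and Neurod1 also stand among the hippocampal neuron genes, and Rora among the thalamic genes. Upper-layer genes were higher for 9 and lower for 3 of 14, with a median of 0.75. Rspo1 led them at 2.48, followed by Kcnh5 at 2.21 and Lamp5 at 2.18. Deep-layer genes were higher for 10 and lower for 3 of 17, with a median of 0.50. They included Ccn2, a gene of the deepest cortical neurons, at 1.59, Sulf1 at 1.31, Pcp4 at 1.13 and Crym at -1.51. Hippocampal neuron genes were higher for 1 and lower for 16 of 19, with a median of -1.30.

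Other tissues next to each dissection were also read. Striatal genes were higher in prefrontal cortex for 12 and lower for 1 of 16, with a median of 0.88, and thalamic genes were higher for 4 and lower for 5 of 14. The mean of the thalamic genes ran from 6.92 to 7.76 in prefrontal cortex, against 7.06 to 8.71 in hippocampus. Choroid plexus genes were lower for 7 of 7, and their mean ran from 5.19 to 6.59 in prefrontal cortex, against 6.09 to 11.04 in hippocampus. Olfactory bulb genes reached a mean of 8.62 on 1 prefrontal cortex array, wild-type PF-04447943 replicate 8, against a median of 6.37 over the 32 prefrontal cortex arrays. The highest prefrontal cortex mean was 7.82 in Tg2576 mice given PF-04447943, 7.61 in wild-type mice given vehicle and 6.63 in Tg2576 mice given vehicle. Hippocampal arrays reached 6.54. The part of these genes in the members' differences was not tested.

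Within the prefrontal cortex some members moved with the striatal genes, in opposite directions. The arrays were divided at the widest gap of the striatal mean, and relations were computed within each side, 16 arrays each. Another wide step, from 8.54 to 8.98, lay within the upper side, so the gap alone does not show distinct classes of arrays. In all 27 relations were tested with 100000 permutations each. Group means were not subtracted in these 27 relations and levels were permuted across groups, so differences between groups can be part of them. Above the gap the level of Foxp2 (r = 0.955, rho = 0.950) and Bcl11b (r = 0.915, rho = 0.887) rose with the striatal mean, with adjusted permutation p = 0.000135 for r in each, from a raw p of 1e-05 that is the smallest these permutations can give. Cux2 (r = -0.803, rho = -0.821, permutation p = 0.00028 and 0.00126 adjusted) and Rorb (r = -0.705, rho = -0.759, permutation p = 0.00213 and 0.00597 adjusted) fell with it. Leaving out the 2 arrays farthest from the median striatal mean gave r of 0.943 for Foxp2, 0.886 for Bcl11b, -0.701 for Cux2 and -0.627 for Rorb. Tbr1 had r = -0.586 (rho = -0.606, permutation p = 0.0152) and Neurod6 r = -0.586 (rho = -0.562, permutation p = 0.0157), each with an adjusted permutation p of 0.0353 for r, and r became -0.466 for Tbr1 and -0.398 for Neurod6 without those 2 arrays. For rho the adjusted permutation p was 0.0389 for Tbr1 and 0.0573 for Neurod6, which did not pass. Fezf2 (r = -0.418), Foxp1 (r = 0.386) and Cux1 (r = -0.106) did not pass, with adjusted permutation p of 0.184, 0.222 and 0.751.

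**Figure D3:**
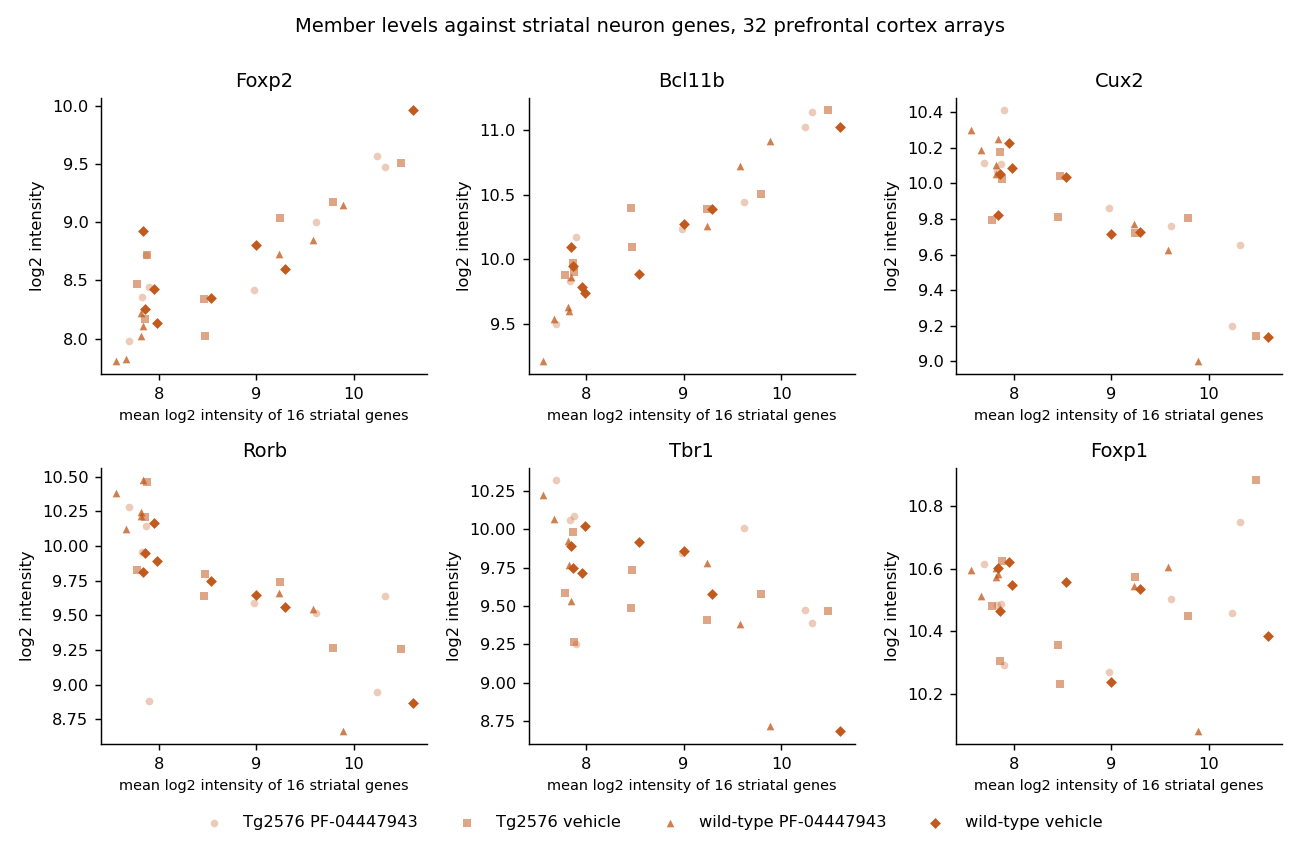
Log2 intensity of 6 members (vertical axes) against the mean log2 intensity of 16 striatal genes (horizontal axes) on 32 prefrontal cortex arrays, with a symbol for each group. Foxp2 and Bcl11b lie higher and Cux2 and Rorb lower on arrays with a high striatal mean, and arrays of every group are found on both sides of the gap between 7.99 and 8.46.

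Below the gap the striatal mean covered a short range, 7.56 to 7.99. There Bcl11b still had r = 0.717 (rho = 0.600, permutation p = 0.00221 and 0.00597 adjusted) and Foxp2 r = 0.558 (rho = 0.556, permutation p = 0.0237 and 0.0492 adjusted, but 0.0573 adjusted for rho), but without the 2 farthest arrays these were 0.383 and 0.232, so they rest on those arrays. Cux2 had r = -0.0874 below the gap (adjusted permutation p = 0.774). Levels of members were also correlated with each other over the prefrontal cortex arrays, here after group means were subtracted and without a test. The values were r = 0.891 between Foxp2 and Bcl11b, 0.756 between Cux2 and Rorb, 0.812 between Fezf2 and Neurod6, and -0.877 between Cux2 and Bcl11b, over 32 arrays that share the striatal gradient.

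In the hippocampus the same was asked of the 19 hippocampal neuron genes, over the 31 arrays closest to their labelled region. Foxp2 (r = -0.677, rho = -0.679), Cux2 (r = -0.671, rho = -0.607) and Cux1 (r = -0.534, rho = -0.547) were lower where the hippocampal genes were higher, with permutation p for r of 3e-05, 5e-05 and 0.00192, or 0.00027, 0.00027 and 0.00597 adjusted. Bcl11b (r = 0.663, rho = 0.611, permutation p = 4e-05 and 0.00027 adjusted) and Neurod6 (r = 0.617, rho = 0.652, permutation p = 0.00033 and 0.00127 adjusted) were higher. Without the 2 farthest arrays r was -0.593 for Foxp2, -0.629 for Cux2, -0.476 for Cux1, 0.619 for Bcl11b and 0.613 for Neurod6. Rorb, Tbr1, Foxp1 and Fezf2 did not pass, with r between -0.166 and 0.124.

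**Figure D4:**
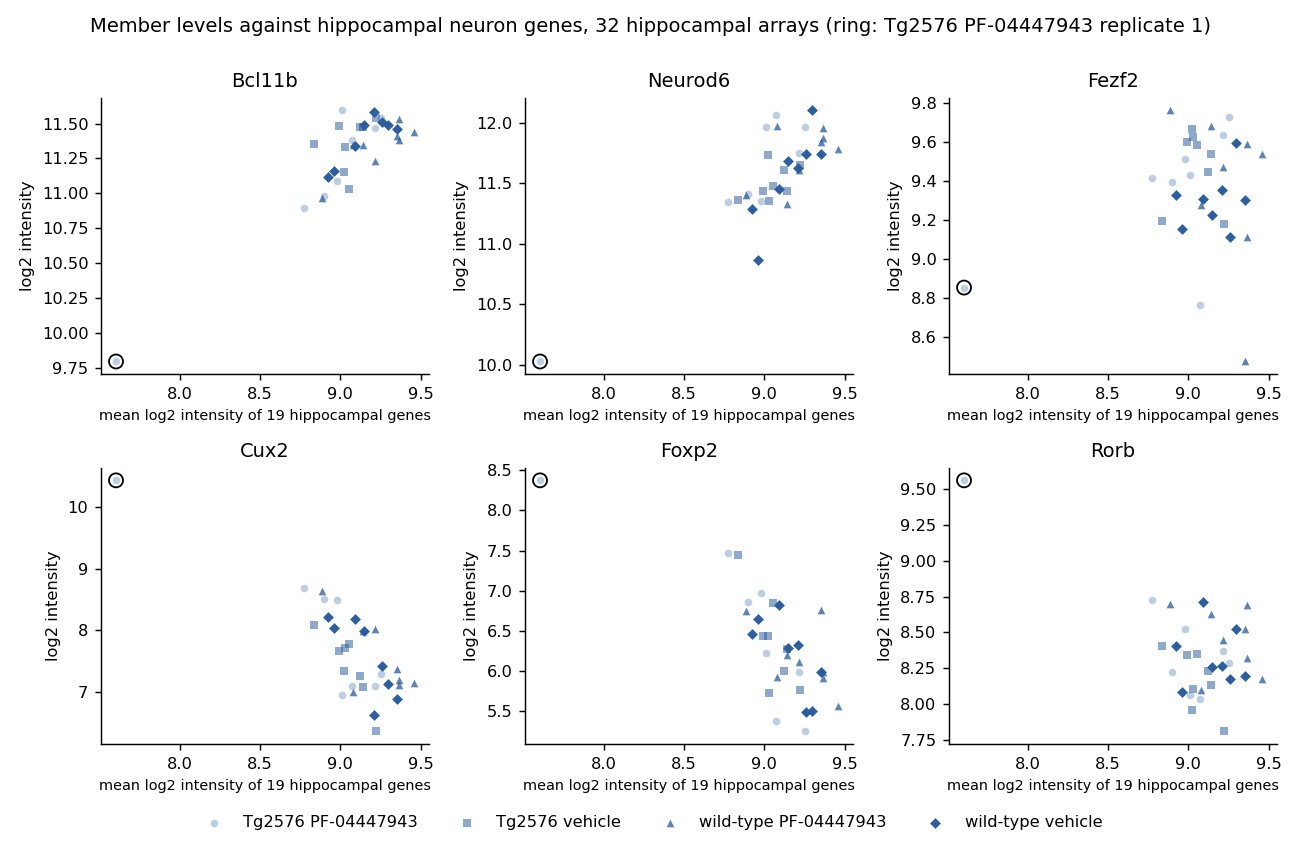
Log2 intensity of 6 members (vertical axes) against the mean log2 intensity of 19 hippocampal neuron genes (horizontal axes) on 32 hippocampal arrays, with a symbol for each group and a ring around Tg2576 PF-04447943 replicate 1. The ringed array lies alone at 7.60, while Cux2 and Foxp2 fall and Bcl11b and Neurod6 rise with the hippocampal genes over the other 31 arrays.

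The genes most like each member within its own region were found among 11442 genes, after group means were subtracted, over 32 arrays. In prefrontal cortex these were Mef2c (r = 0.905) and Adam11 (0.905) for Cux2, Tbc1d30 (0.941) and Jdp2 (0.940) for Rorb, and Zbtb18 (0.928) and Glrb (0.922) for Tbr1. Foxp2 was followed most closely by Efnb3 (0.924) and Rarb (0.922), Foxp1 by Ngef (0.732) and Gabra4 (0.635), and Cux1 by Lrrc8c (0.730) and Rabl6 (0.715). In hippocampus they were Iqgap2 (0.951) and Gria1 (0.946) for Bcl11b, Shisa6 (0.947) and Zbtb20 (0.939) for Neurod6, and Cadps2 (0.844) and Lonrf1 (0.798) for Fezf2. Without the array that stood apart the values for Bcl11b were 0.870 and 0.848, for Neurod6 0.886 and 0.873, and for Fezf2 0.831 and 0.801. These are descriptions over arrays that share dissection differences.

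The second comparison asked whether the amyloid transgene changed the layer factors. Averaged over treatments, 0 of 36 member probe sets were called in prefrontal cortex, where 0.0111% of all probe sets were, and 0 of 36 in hippocampus, where 0.0488% were (limma). At an unadjusted p under 0.05 the counts were 1 in each region, against 9.75% and 6.22% of all probe sets. The largest gene differences had intervals that included 0: Fezf2 was at 0.26 in prefrontal cortex (95% interval -0.02 to 0.54) and Foxp2 at 0.30 in hippocampus (-0.17 to 0.76), or 0.17 without the array that stood apart. Bcl11b averaged 10.29 in Tg2576 and 10.05 in wild-type prefrontal cortex, a difference of 0.23 (-0.12 to 0.58). In hippocampus Cux2 averaged 7.74 in Tg2576 and 7.56 in wild-type mice, a difference of 0.18 (-0.35 to 0.71), and 0.01 without the array that stood apart.

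The third comparison asked whether PF-04447943 changed them. Averaged over genotypes, 0 of 36 member probe sets were called in prefrontal cortex, where 0% of all probe sets were, and 0 of 36 in hippocampus, where 3.7% were (limma). At an unadjusted p under 0.05 the counts were 0 and 2, against 2.63% and 22.6% of all probe sets. Rorb and Tbr1 averaged 8.46 and 8.18 in hippocampus of PF-04447943-treated mice, against 8.25 and 7.96 in vehicle mice, differences of 0.21 (0.0016 to 0.43, limma, adjusted p = 0.218) and 0.21 (-0.02 to 0.45, limma, adjusted p = 0.275). Without the array that stood apart, Rorb differed by 0.14 ± 0.08 (SE, limma, adjusted p = 0.278) and Tbr1 by 0.15 ± 0.11 (SE, limma, adjusted p = 0.375). In prefrontal cortex Foxp2 averaged 8.54 in PF-04447943-treated mice and 8.68 in vehicle mice, -0.14 (-0.51 to 0.23).

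Within single genotypes and treatments 0 of 36 were called as well (limma). For the transgene in prefrontal cortex, 0% of all probe sets were called under vehicle and 0.00222% under PF-04447943, and in hippocampus 0.00666% under vehicle and 0% under PF-04447943. At an unadjusted p under 0.05 members numbered 1 in prefrontal cortex under vehicle (9.49% of all probe sets), 2 there under PF-04447943 (3.42%), 3 in hippocampus under vehicle (5.6%) and 0 there under PF-04447943 (5.54%). For the drug, 0% of all probe sets were called in prefrontal cortex of either genotype and in hippocampus of Tg2576 mice, and 0.0355% in hippocampus of wild-type mice. At an unadjusted p under 0.05 they numbered 0 in Tg2576 prefrontal cortex (3.45% of all probe sets), 1 in wild-type prefrontal cortex (2.46%), 3 in Tg2576 hippocampus (10.6%) and 2 in wild-type hippocampus (18.7%).

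The largest of the drug differences changed with 1 array. Cux2 in hippocampus of Tg2576 mice had the largest drug difference, 0.66 (-0.09 to 1.40), and this fell to 0.32 without the array that stood apart, which is 1 of the 8 treated arrays. The transgene difference of Cux2 under PF-04447943 was 0.51 with that array and 0.17 without it. The drug by genotype interactions, the transgene by region interaction and the drug by region interaction also called 0 of 36, the last against 0.269% of all probe sets and the others against 0%. At an unadjusted p under 0.05 the interactions held 0 members in prefrontal cortex (3.15% of all probe sets), 1 in hippocampus (5.01%), 1 for the transgene by region (6.38%) and 1 for the drug by region (12.1%). Without the array that stood apart 1 member probe set was called: Foxp2 probe set 1422014_at was lower under PF-04447943 in hippocampus averaged over genotypes, at -0.22 ± 0.06 (limma, adjusted p = 0.0489), against -0.16 (limma, adjusted p = 0.231) with it. The brightest Foxp2 probe set differed by -0.05 in that fit (limma, adjusted p = 0.910). Among all probe sets 1556 were called in the fit without the array, against 1666, or 3.7%, with it (limma). The call of 1 of 36 member probe sets therefore does not stand out from the calls over all probe sets.

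**Figure D5:**
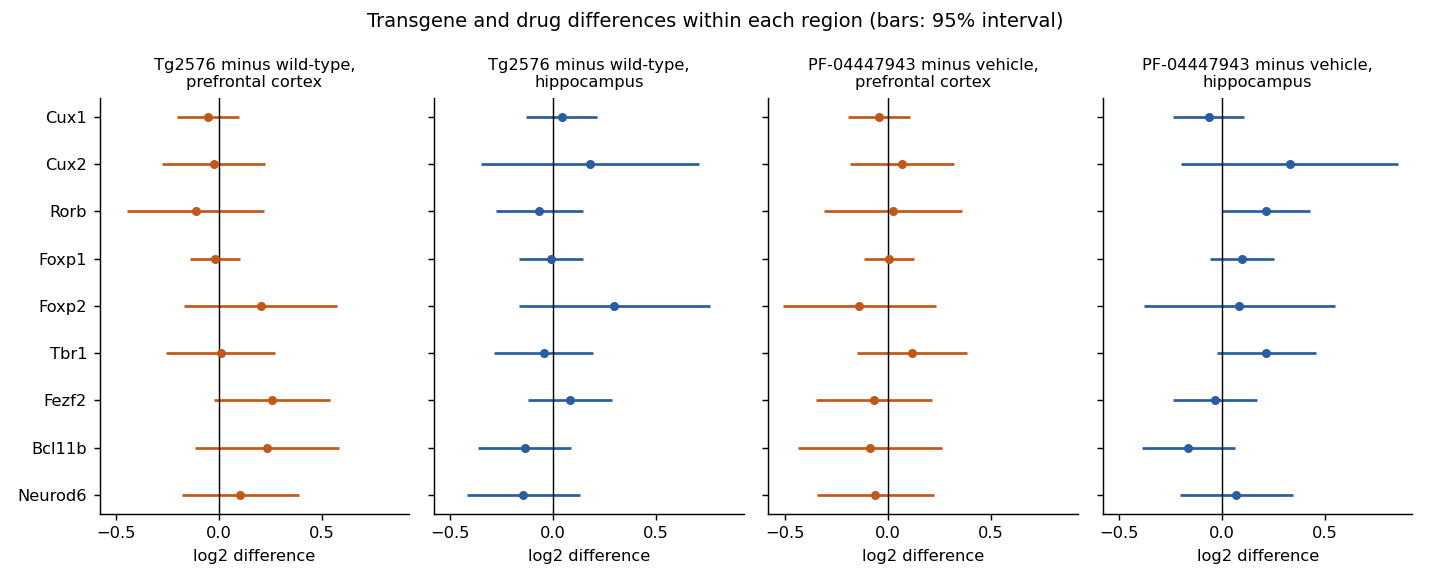
Log2 difference (horizontal axes) with its 95% interval for the brightest probe set of 9 members: Tg2576 minus wild-type and PF-04447943 minus vehicle, each in prefrontal cortex and hippocampus, from a fit to the 32 arrays of that region. The intervals include 0 for all but Rorb under PF-04447943 in hippocampus, at 0.21, which was not called after adjustment and was 0.14 without the hippocampal array that stood apart.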

How the data were processed

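Per the submitters' processing notes, the authors used RMA to make the deposited intensity values. Its version, and whether all arrays were normalized together, are not given in the labels. The values lay on a linear scale and log2 was taken. Probe sets were named from the GEO platform annotation with symbols updated through RefSeq: 34945 had 1 symbol, 932 several and 9160 none, and 64 controls were left out. With limma 3.58.1 in R 4.3.3, 45037 probe sets were fitted without a filter. Regional differences came from 1 fit of 8 groups, and other differences from 1 fit of 4 groups in each region. Two-sided p-values were adjusted over all probe sets by Benjamini-Hochberg, with 0.05 as the threshold. The fits were tested on simulated data. Members, marker lists and alternatives were chosen with earlier results of these data known. From each list at most 4 genes with the largest regional difference are named, apart from genes named because lists share them. The most similar genes are the 2 with the highest correlation among genes at or above the median level. Relations with marker lists, and the settings that leave out arrays high in striatal genes, were added after seeing the data. The number of arrays limits precision. Whether a replicate number marks 1 mouse is not stated, and no pairs were used in the main fits. Figures were drawn with matplotlib 3.10.9 in Python 3.11.15.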

Additional observations from a re-analysis of the deposited data

Results flagged for a closer look

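Of 72 gene and group combinations, 11 had 1 array far from the other 7, and chance marks about 1 in 20 groups. The genes share the same arrays, so the combinations are not independent and the 11 cannot be weighed against that rate. In hippocampus all 3 were on Tg2576 PF-04447943 replicate 1: Rorb at 9.56 (next highest 8.73), Bcl11b at 9.79 (next lowest 10.90) and Neurod6 at 10.03 (next lowest 11.35). This is the array that correlated better with prefrontal cortex.

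In prefrontal cortex wild-type vehicle replicate 5, which had the highest striatal gene mean at 10.60, held 5 of them: Cux2 was lowest at 9.14, Rorb at 8.87, Tbr1 at 8.68 and Fezf2 at 7.71, and Foxp2 was highest at 9.96. Tg2576 vehicle replicate 6, with a striatal mean of 10.48, had the lowest Cux2 of its group at 9.15. Wild-type PF-04447943 replicate 8, with a striatal mean of 9.89 and the highest olfactory bulb mean at 8.62, had the lowest Foxp1 at 10.08 and the lowest Neurod6 at 9.37. The part of striatal or olfactory bulb tissue in these values was not tested.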

How the results depend on the processing

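Of 1868 values recomputed for 51 results, 1867 kept their direction and side of the threshold, or a count within 1.5 times. The exception was the drug difference in hippocampus averaged over genotypes, with 0 member probe sets called and 1 without hippocampus Tg2576 PF-04447943 replicate 1; leaving out single arrays gave 0 to 1, and the cause was not tested. The averaged regional difference called 26 to 34 member probe sets under other settings, 26 with a filter that left 29 of 36 to test, and 32 to 33 when single arrays were left out. Bcl11b ranged from -1.53 to -0.94, Foxp2 from 2.00 to 2.41 and Cux2 from 2.03 to 2.53 over those other settings. With arrays of the same genotype, treatment and number in both regions taken as a block, 33 member probe sets were called in place of 32. Within each region, with the replicate number as a block, 0 were called in each comparison. The calls over all probe sets did change with that block. For the drug in hippocampus they were 2802 in place of 1666 (3.7%) averaged over genotypes, and 459 in place of 16 (0.0355%) in wild-type mice. Same-numbered arrays correlated at -0.24 to 0.58 between regions (median 0.16, 32 pairs), at -0.61 to 0.62 across prefrontal cortex groups (median 0.34, 48 pairs) and at -0.31 to 0.46 across hippocampal groups (median 0.13, 48 pairs). Not every pair was over 0.1 in any of these, so the numbers were not taken to pair the arrays in the main fits. Differently numbered arrays were not compared, so this cannot show that numbers carry no shared difference. The interquartile range of log2 values differed by number in some groups. In wild-type PF-04447943 prefrontal cortex it was 3.67 to 3.77 for numbers 1 to 4 and 3.38 to 3.57 for 5 to 8. In Tg2576 vehicle prefrontal cortex it was 3.77 to 3.90 and 3.52 to 3.66, and in Tg2576 vehicle hippocampus 3.37 to 3.42 and 3.58 to 3.67. Whether this marks a batch was not tested. Signals low on the array limit what weak probe sets can show.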

Other observations

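Genes of other cell types were also read between the regions, where 55.5% of all probe sets were called. Inhibitory neuron genes were higher in prefrontal cortex for 7 of 10 and lower for 0, led by the neuropeptide Vip at a log2 difference of 1.56, the calcium-binding protein gene Pvalb at 0.90 and Npy at 0.81. Oligodendrocyte genes were lower for 7 of 7, with Mobp at -0.81. Astrocyte genes were higher for 2 and lower for 4 of 8, with the intermediate filament gene Gfap at -2.38 and Aqp4, a water channel, at -0.68. Microglia genes were higher for 2 and lower for 1 of 7, all within 0.26 of 0, a share below that of all probe sets.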
